A study of Homo sapiens with 4 samples.

Results

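Chromosome 19q13.4 carries dense clusters of genes for C2H2 zinc-finger proteins, and 59 of them were followed here in Hap1 cells with and without Baz2B, a regulatory subunit of ISWI chromatin remodelling complexes. The genes are those listed for 19q13.41, from ZNF615 to ZNF331 in chromosome order, and for 19q13.43, from ZNF304 to ZNF8. A probe set was found for 54 of the 59, 53 by the platform annotation and 1, ZNF28, only by its symbol in a supplementary list of the study. Only rows of low p of that list were used here, so ZNF28 could be named because its p was low. The clusters were selected on the values of this same contrast, in which ZNF841, ZNF256 and ZNF544 are among the genes that fell. ZNF468, ZNF816, ZNF525, ZNF813 and ZNF550 had no named probe set and were not analysed here. Each gene is given by its probe set of highest mean, which left out a dimmer one only for ZNF551. Total RNA was hybridised to 4 Affymetrix GeneChip arrays, 2 of Baz2B-KO and 2 of the parental Hap1 control. Hap1 is an adherent, near-haploid human line derived from leukaemia cells. Baz2B-KO is 1 commercial Hap1 line, edited by CRISPR-Cas9, with a short deletion in a coding exon of BAZ2B, and the loss of Baz2B and any other change acquired by this line cannot be told apart. Both lines were grown in IMDM medium with foetal serum and given no other treatment. Whether replicate arrays stand for separate cultures is not stated, so every p-value below rests on a spread between arrays that may be only technical. In bulk RNA, fewer cells with a transcript and less of it in each cell cannot be told apart.

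C2H2 zinc-finger proteins read DNA through tandem fingers, and most of those encoded on chromosome 19 also carry a KRAB domain. The KRAB domain recruits the corepressor TRIM28, which brings the H3K9 methyltransferase SETDB1 and HP1 proteins to the bound site, and many of these proteins silence transposable elements in this way. The genes arose by repeated tandem duplication, so neighbours are often close paralogs, and the clusters themselves carry heterochromatin marks, placed in part by ZNF274, itself a member. A loss of expression in such a cluster could be held by single genes or be shared by neighbours, and this is the question the comparison addresses.

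The values are log2 intensities after RMA, 1 per probe set and array, with array medians between 3.53 and 3.55 over 53617 probe sets. An intensity above 3.5 in at least 2 arrays was required for a test, which 44 of the 54 members met, 41 of them in all 4 arrays. A gene is said to have fallen or risen where limma, fitted over all tested probe sets, gave a Benjamini-Hochberg adjusted p under 0.05. No probe set of BAZ2B is named in the tables used here, so the knocked-out gene was not analysed. Over the 11235 tested probe sets the 2 Baz2B-KO arrays correlated at 0.992, the 2 controls at 0.989 and arrays of different lines at 0.983 to 0.987. Of 15 blood lineage genes, 10 had a named probe set and 6 of these lay above the limit in all arrays. The mean log2 intensity over the 10 was 4.41 to 4.44 in Baz2B-KO and 4.36 to 4.37 in the control. Of 7 epithelial genes 6 had a named probe set, and 4 of these (EPCAM, KRT8, KRT18 and KRT19) lay above the limit in all arrays. Of 6 neural genes 4 had a named probe set, and 3 of these (SOX2, NES and MAP2) lay above the limit in all arrays. CLDN4, GRHL2 and STMN2 lay under it in all arrays. The mean over the epithelial genes was 4.53 to 4.55 in Baz2B-KO and 4.49 to 4.63 in the control, and over the neural genes 5.28 to 5.36 in Baz2B-KO and 5.38 to 5.59 in the control. Only 2 of 7 fibroblast and 3 of 5 endothelial genes had a named probe set, and all of these lay under the limit in every array. None of the marker genes passed the test.

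The promoters of the members that fell are shown with those of a neighbour of ZNF841 and a neighbour of ZNF544 that did not pass, so that genes side by side on the chromosome can be compared. They cover 250 bases before to 50 after the gene's start, from RefSeq on GRCh38.p14, and are written 5′ to 3′. Capitals mark matches on either strand to any of 6 motifs, which are the TATA box with the letters TATAAA, the CCAAT box as named, the GC box with the letters GGGCGG, the ETS factor motif with the letters CCGGAAG, the YY1 motif with the letters AAGATGGC and the NRF1 motif. Overlapping matches run together. ZNF841 lies at chr19:52095716-52096015 on the minus strand, ZNF616, the next zinc-finger gene, at chr19:52139889-52140188 on the minus strand, ZNF256 at chr19:57947657-57947956 on the minus strand, ZNF544 at chr19:58228664-58228963 on the plus strand, and ZNF274, the zinc-finger gene before ZNF544, at chr19:58182811-58183110 on the plus strand.
ZNF841: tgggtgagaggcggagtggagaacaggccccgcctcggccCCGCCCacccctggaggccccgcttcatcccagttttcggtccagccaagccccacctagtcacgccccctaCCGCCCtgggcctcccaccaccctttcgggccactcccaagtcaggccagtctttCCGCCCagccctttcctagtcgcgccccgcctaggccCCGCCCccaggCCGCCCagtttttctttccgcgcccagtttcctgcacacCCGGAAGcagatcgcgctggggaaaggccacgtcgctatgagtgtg
ZNF616: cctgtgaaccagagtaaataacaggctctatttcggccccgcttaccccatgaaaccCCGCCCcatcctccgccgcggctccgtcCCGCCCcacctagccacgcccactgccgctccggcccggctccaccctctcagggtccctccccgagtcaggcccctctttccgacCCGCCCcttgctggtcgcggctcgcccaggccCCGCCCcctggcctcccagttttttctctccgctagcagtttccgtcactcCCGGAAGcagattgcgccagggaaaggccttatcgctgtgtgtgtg
ZNF256: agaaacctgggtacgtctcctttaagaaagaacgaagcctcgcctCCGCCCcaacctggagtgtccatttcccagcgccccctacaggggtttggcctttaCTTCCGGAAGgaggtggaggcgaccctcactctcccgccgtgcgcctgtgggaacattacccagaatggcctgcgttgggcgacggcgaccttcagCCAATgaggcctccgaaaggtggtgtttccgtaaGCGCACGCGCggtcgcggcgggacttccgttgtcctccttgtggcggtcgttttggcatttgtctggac
ZNF544: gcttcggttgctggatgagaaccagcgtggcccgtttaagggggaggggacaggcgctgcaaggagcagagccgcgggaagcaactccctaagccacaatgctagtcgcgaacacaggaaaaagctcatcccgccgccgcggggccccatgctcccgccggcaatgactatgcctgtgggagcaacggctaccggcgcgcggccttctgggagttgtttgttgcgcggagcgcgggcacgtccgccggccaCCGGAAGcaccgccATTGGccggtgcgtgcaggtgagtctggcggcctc
ZNF274: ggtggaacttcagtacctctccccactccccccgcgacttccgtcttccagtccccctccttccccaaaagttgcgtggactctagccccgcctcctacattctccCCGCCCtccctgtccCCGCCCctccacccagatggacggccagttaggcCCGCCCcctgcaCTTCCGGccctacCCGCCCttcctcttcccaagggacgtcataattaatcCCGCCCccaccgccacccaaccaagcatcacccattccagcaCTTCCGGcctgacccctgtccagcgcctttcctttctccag

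ZNF841, ZNF256 and ZNF544 were the members that fell in Baz2B-KO, and no member rose. The 3 genes are the lowest of the 54 by log2 fold change, and they are the values that led to the choice of these clusters, so what follows is a description and no independent test. ZNF841, a KRAB zinc-finger gene of 19q13.41, had log2 intensities of 3.92 and 4.10 in Baz2B-KO, against 5.01 and 5.22 in the Hap1 control. Both Baz2B-KO arrays lay below both controls and all 4 were above the intensity limit. ZNF841 averaged 4.01 ± 0.133 in Baz2B-KO and 5.11 ± 0.152 in the control (SD, n = 2 each), 2.15-fold lower. With limma across all tested probe sets its log2 fold change was -1.10 with a standard error of 0.130 and an adjusted p of 0.0147.

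ZNF256 of 19q13.43, whose KRAB protein binds TRIM28, had 2.62 and 3.07 in Baz2B-KO and 4.18 and 4.03 in the control. Both Baz2B-KO arrays lay under the limit of 3.5 and both controls above it. ZNF256 was 2.39-fold lower, which is -1.26 ± 0.164 (standard error) on the log2 scale, and limma gave an adjusted p of 0.0238. ZNF544, near the end of the same cluster, showed the same arrangement, with 2.90 and 2.85 in Baz2B-KO and 3.56 and 3.71 in the control. It was 1.69-fold lower, at -0.76 ± 0.114 (standard error) on the log2 scale and an adjusted p of 0.0402 from limma. ZNF256 and ZNF544 met the intensity filter through the controls alone, so they entered the test only because the control was the higher group, and their folds rest on Baz2B-KO intensities under the limit, where RMA compresses differences.

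These 3 were the calls among the 44 members that were tested, and 41 did not pass. Over all 11235 tested probe sets, 0.392% were called lower and 0.276% higher in Baz2B-KO. As the clusters were chosen for these genes, nothing is read from the difference between the shares. At an unadjusted p under 0.05 from limma, 7 of the 44 were lower (15.9%) and 1, ZNF416, was higher (2.27%), against 4.47% lower and 5.38% higher over all 11235, and as these are values of the same contrast nothing is read from them either. The calls depended on single arrays. Without Baz2B-KO replicate 1, without Hap1 control replicate 1 and without Hap1 control replicate 2 no member passed, with lowest adjusted p values of 0.0645, 0.123 and 0.207 from limma, and without Baz2B-KO replicate 2 ZNF841 and ZNF256 passed. They also depended on the probe sets and the model. ZNF841 alone passed with no intensity filter and with the replicate number as a block, and no member passed when all 27722 retained probe sets were tested (adjusted p = 0.17 to 0.24 from limma for the 3 genes).

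None of the genes next to the 3 was called, ZNF418 being untested, and most lay near 0. On one side of ZNF841, ZNF432 had 4.70 and 4.32 in Baz2B-KO and 4.46 and 4.78 in the control, and on the other ZNF616 had 5.32 and 5.08 in Baz2B-KO and 5.31 and 5.0 in the control. Both sets of arrays overlapped. The log2 fold changes were -0.11 for ZNF432 (standard error 0.167) and 0.04 for ZNF616 (standard error 0.148), and the genes one further place away, ZNF614 (0.03) and ZNF836 (0.24), did not pass either, although both Baz2B-KO arrays of ZNF836 lay above both controls.

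Around ZNF256 the nearest members were ZNF418, which lay under the limit in all 4 arrays and had a log2 difference of -0.14, and ZNF606, at -0.03 (standard error 0.130). ZNF606 had 5.83 and 5.57 in Baz2B-KO and 5.79 and 5.67 in the control, and the lines overlapped. Beyond ZNF418, the paralogs ZNF417 and ZNF587, whose KRAB proteins repress HERV-K proviruses, had log2 fold changes of -0.23 and -0.28, and ZNF814, between them and not listed, one of -0.26. ZNF417 had 5.54 and 5.66 in Baz2B-KO and 5.87 and 5.79 in the control. ZNF587 had 5.35 and 5.57 in Baz2B-KO and 5.69 and 5.79 in the control. In each of the 2, and in ZNF814, both Baz2B-KO arrays lay below both controls, but the differences did not pass the test (adjusted p = 0.502 to 0.598 from limma). ZNF417 and ZNF587 encode near-identical proteins, and a probe set of the one may also read transcripts of the other.

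Around ZNF544 the neighbours lay on the other side of 0. ZNF274, which brings SETDB1 to the clusters, had 5.08 and 5.47 in Baz2B-KO and 4.91 and 5.06 in the control, 0.29 apart on average (standard error 0.152). ZNF8 had 6.91 and 7.0 in Baz2B-KO and 6.92 and 6.79 in the control, a difference of 0.10 (standard error 0.113). ZNF329, 2 places before ZNF544, was at 0.28 (standard error 0.127). None of the 3 passed the test.

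**Figure D1:**
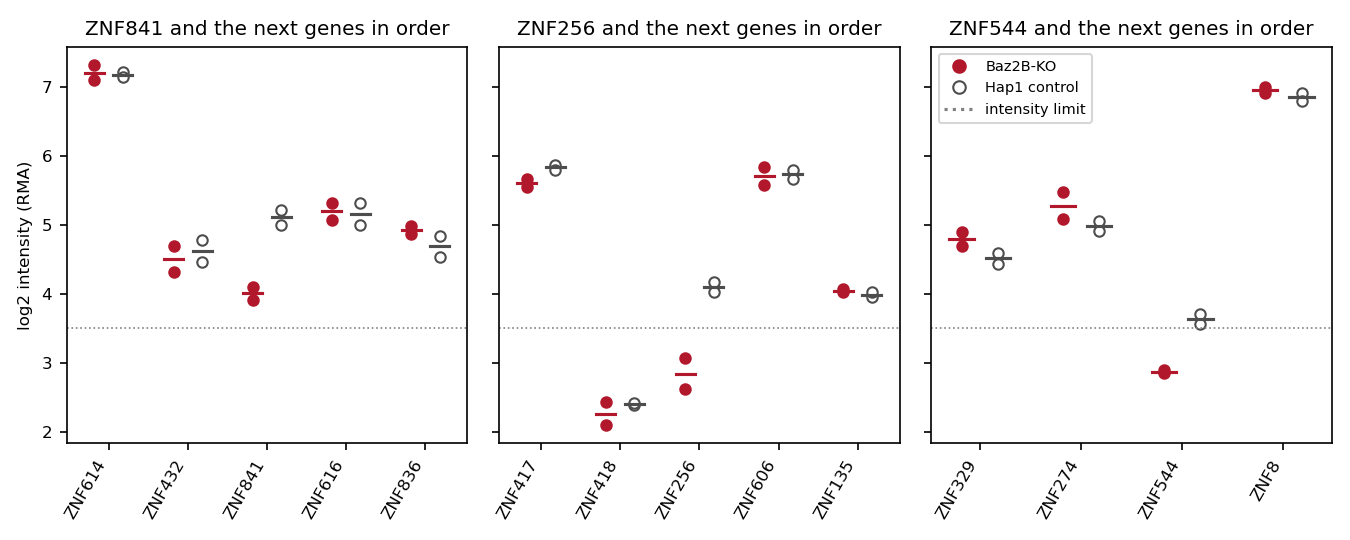
Log2 intensity (RMA) of ZNF841, ZNF256 and ZNF544 and of the zinc-finger genes up to 2 places away in chromosome order, with 1 point per array, a bar at the mean of the 2 arrays of a line, and the limit of 3.5 dotted. In each panel the named gene shows separated lines, and its nearest neighbours on either side overlap or, for ZNF274, lie higher in Baz2B-KO. Heights of different genes come from different probe sets and are not comparable.

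The longest run of neighbours with differences of 1 sign was in 19q13.41. From ZNF808 to ZNF28, 6 members in a row lay lower in Baz2B-KO with no overlap between the lines. Their differences were smaller than those of the 3 genes above, and none of those tested passed. Such a lack of overlap is common with 2 arrays a line: both Baz2B-KO arrays lay below both controls in 15.3% of all 14884 named genes and in 29.6% of the members. ZNF28, the last of the 6, could be named because its p was low. Without it the run has 5 members, as many as the run from ZNF587 to ZNF606. This stretch was picked after its values were seen. Neighbours are often close paralogs, and whether these probe sets read each other's transcripts was not examined. The 6 may therefore not be separate measurements. ZNF808, which silences MER11 elements and is needed for pancreas development, had 5.82 and 5.84 in Baz2B-KO, against 6.21 and 6.24 in the control. Its log2 fold change was -0.39 ± 0.106 (standard error), with an adjusted p of 0.263 from limma, and the arrays of each line lay close together. ZNF701 had 4.09 and 3.54 in Baz2B-KO and 4.21 and 4.17 in the control, and the 2 Baz2B-KO arrays differed by more than the log2 fold change of -0.37.

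ZNF83 had 5.04 and 4.84 in Baz2B-KO and 5.49 and 5.31 in the control (log2 fold change -0.46, standard error 0.127). ZNF611, whose protein binds SVA retrotransposons, differed least of the 6, with 6.02 and 6.07 in Baz2B-KO and 6.13 and 6.29 in the control (-0.16, standard error 0.115). ZNF600 had 2.71 and 2.45 in Baz2B-KO and 3.20 and 3.34 in the control, all under the limit, so that it was not tested. It had the largest difference of the stretch, at -0.69. ZNF28 had 5.55 and 5.57 in Baz2B-KO and 6.07 and 5.77 in the control (-0.37, standard error 0.131). The adjusted p values of the 5 tested genes lay between 0.263 and 0.757 from limma. The stretch is bounded by ZNF578, at 0.08, and on the other side by ZNF468, which had no probe set, and ZNF320, at 0.21, both measured genes being under the limit in all arrays. The next longest run held ZNF256 itself. From ZNF587 to ZNF606, 5 measured members in a row lay below 0, between -1.26 and -0.03, of which ZNF587, ZNF417 and ZNF256 had no overlap between the lines and only ZNF256 passed. Of the runs above 0 the longest had 4 members, from ZNF480 to ZNF528 (0.03 to 0.43, 3 without overlap) and from ZNF304 to ZNF17 (0.02 to 0.19, 1 without overlap). Both Baz2B-KO arrays lay above both controls in 21.9% of all 14884 named genes.

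**Figure D2:**
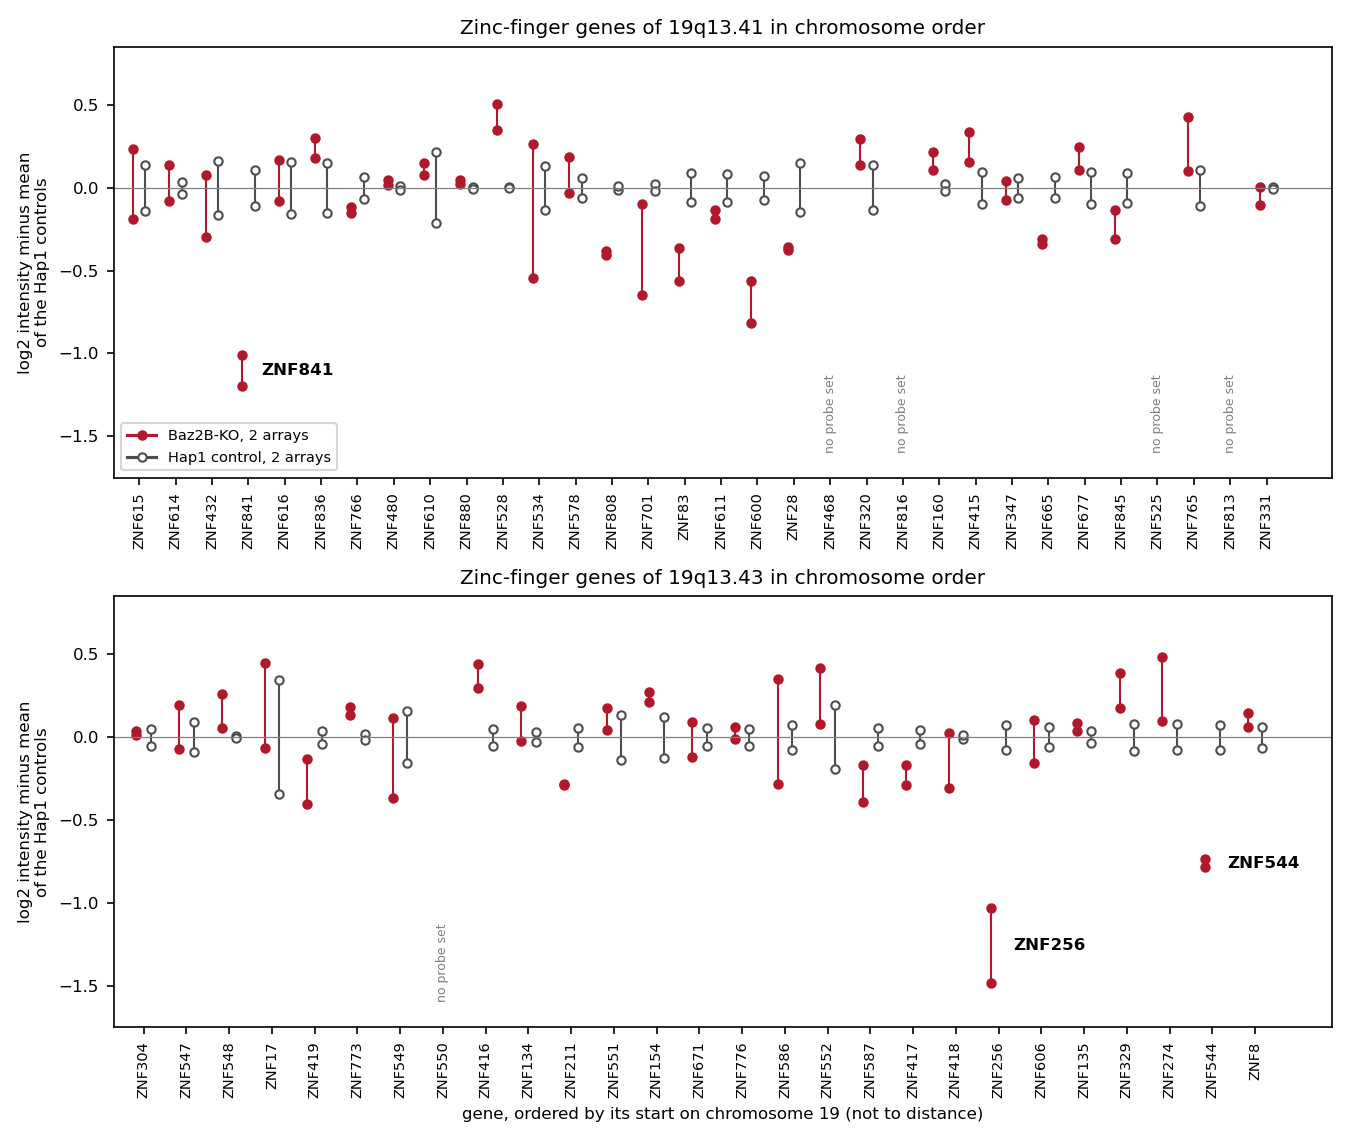
Log2 intensity of each array minus the mean of the 2 Hap1 controls, for the 59 members in the order of their starts on chromosome 19 (spacing is not to distance), with the 2 Baz2B-KO arrays as filled and the 2 controls as open points joined by a line. ZNF841, ZNF256 and ZNF544 lie at -1.10, -1.26 and -0.76, and the nearest measured members on either side of them lie between -0.14 and 0.29. The 6 genes from ZNF808 to ZNF28 lie between -0.69 and -0.16.

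Over the clusters as a whole the median lay near 0. The median log2 fold change of the 54 members was 0.03, with 24 below 0 and 30 above, against a median of 0.02 over the 14884 genes with a named probe set. It was 0.00 for the 28 members of 19q13.41 and 0.05 for the 26 of 19q13.43. With 1 array left out each of these member medians changed sign at least once. Of all named genes 44.4% were below 0, the same share as among the members. Of 52 adjacent pairs of measured members, 27 had the same sign, and the log2 fold changes of adjacent members correlated at r = 0.04 (Spearman's rho 0.05, 52 pairs that share the same 4 arrays).

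More of the members lay in the lower tail than in the upper. Of the 54, 12 had a log2 fold change under -0.25 (22.2%) and 5 one over 0.25 (9.26%), against 7.03% and 8.97% of all named genes. Both Baz2B-KO arrays lay below both controls in 16 members (29.6%) and above them in 13 (24.1%), against 15.3% and 21.9% of the 14884 named genes. No test was made of these shares, since the clusters were chosen for genes of this tail. The median absolute log2 fold change of the members, a difference of means of 2 arrays, was 0.162. The median gap between the single arrays of a line was 0.177 in Baz2B-KO and 0.139 in the control. The measures are unlike, since means of 2 arrays vary less than single arrays. In 21 members the difference between the lines was larger than the gap within either, 13 lower and 8 higher. The same count was not made over all named genes, so nothing is read from it.

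The members that lay highest in Baz2B-KO were ZNF528, ZNF416, ZNF274, ZNF329 and ZNF765, and none of them passed. ZNF528 had 2.82 and 2.66 in Baz2B-KO and 2.31 and 2.30 in the control, a difference of 0.43 that lay wholly under the limit and was not tested. ZNF416 had 5.16 and 5.02 in Baz2B-KO and 4.67 and 4.77 in the control, with no overlap (0.37 ± 0.116, standard error, on the log2 scale, and an adjusted p of 0.348 from limma). ZNF765, at 0.27, had 5.25 and 4.93 in Baz2B-KO and 4.71 and 4.93 in the control, and the lines overlapped. ZNF331, an imprinted gene at the distal end of 19q13.41, was at -0.05, and ZNF304, a transcriptional repressor at the proximal end of the list for 19q13.43, at 0.02. ZNF154, often methylated in tumours, lay under the limit in all arrays, with a difference of 0.24. The widest gap between arrays of a line was that of ZNF534, at 4.04 and 4.85 in Baz2B-KO, which spanned the controls at 4.45 and 4.71. Apart from the 10 members that did not meet the filter and the 3 calls, the tested members ranged between -0.46 and 0.37.

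No other gene of the same stretches that was tested was called. All 5 zinc-finger genes outside the list were tested, but only 4 of the 9 genes without a ZNF name. Over all 11235 tested probe sets 0.392% were called lower and 0.276% higher, so nothing is read from the lack of a call among so few. The 5 zinc-finger genes there that are not in the list, ZNF749, ZNF772, ZNF530, ZNF587B and ZNF814, had log2 fold changes between -0.26 and 0.33, and the 9 genes without a ZNF name, among them vomeronasal receptor and SCAN zinc-finger genes, between -0.14 and 0.19. Of 168 ZNF genes elsewhere on chromosome 19 the median was -0.01, with 14 under -0.25 (8.33%), and of 245 on other chromosomes it was 0.01, with 21 under -0.25 (8.57%). None of the 334 of these ZNF genes that were tested passed, at a lowest adjusted p of 0.119 from limma, and at an unadjusted p under 0.05, 16 were lower (4.79%) and 11 higher (3.29%), against 4.47% lower and 5.38% higher over all tested probe sets. These shares stand beside the 22.2% of the members as a description.

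**Figure D3:**
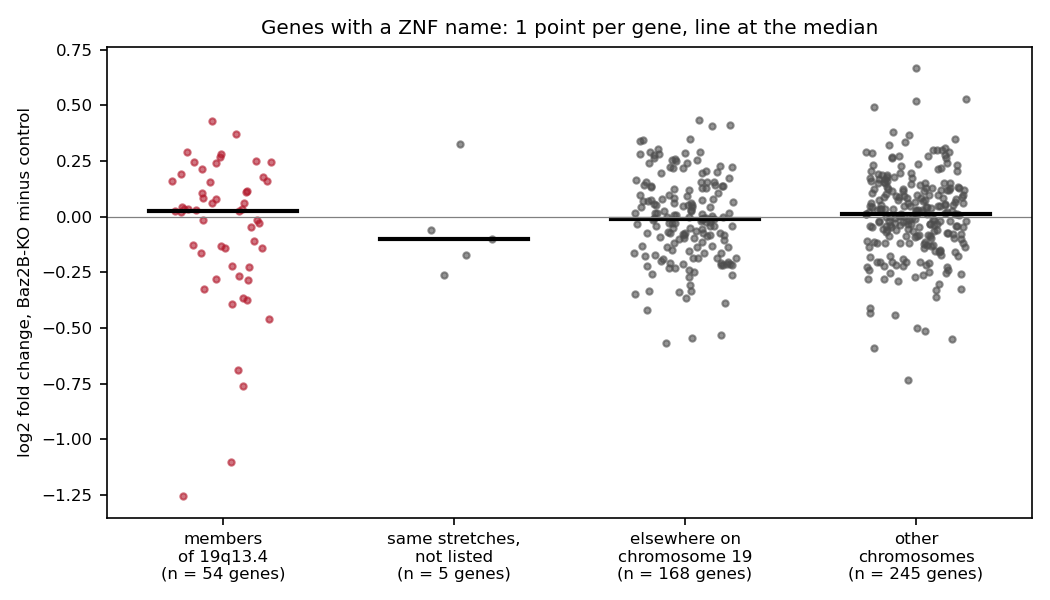
Log2 fold change (Baz2B-KO minus Hap1 control) of genes with a ZNF name, 1 point per gene with a line at the median, for the 54 members, the 5 others of the same stretches, 168 elsewhere on chromosome 19 and 245 on other chromosomes. The medians are 0.03, -0.10, -0.01 and 0.01. The lowest points of the members, at -1.26 and -1.10, are genes for which the clusters were chosen, so nothing is read from their place below the other groups, whose lowest is -0.73.

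None of the corepressor genes that act with KRAB proteins passed the test. The list held 30 genes, for TRIM28, its partners, other heterochromatin proteins and the zinc-finger protein ZNF24. ZNF24 is also counted above among the ZNF genes of other chromosomes. Of the 30, 26 had a named probe set and all 26 were tested. Over all 11235 tested probe sets 0.392% were called lower and 0.276% higher, so nothing is read from the lack of a call among 26. None of the 26 had an unadjusted p under 0.05 from limma, against 4.47% lower and 5.38% higher over all tested probe sets. The log2 fold changes lay between -0.13 (ATF7IP, a partner of SETDB1) and 0.17 (DAXX, a histone chaperone), with a median of 0.01. TRIM28 had 9.58 and 9.61 in Baz2B-KO and 9.32 and 9.55 in the control (log2 fold change 0.16, with an adjusted p of 0.793 from limma). SETDB1 had no named probe set.

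The promoters of the members shared features that the choice of genes did not use. RefSeq promoters were matched for 51 of the 59 members, 9 of them with several starts, which gave 65 promoters. The letters CCGGAAG occurred on either strand in 41 of the 65 (63.1%), against 10.3% of 35114 promoters of the same length. They occurred in 33.5% of promoters of other ZNF genes of chromosome 19, in 28.5% of those of ZNF genes on other chromosomes and in 15.2% of all promoters with at least 55% GC. The median GC content was 61.0% in the members and 58.7% over all promoters, and the median number of CpG dinucleotides was 22 against 14. GC boxes were found in 67.7% against 45.0%, CCAAT in 41.5% against 34.6%, NRF1 letters in 9.23% against 5.78%, YY1 letters in 4.62% against 2.89% and TATAAA in 3.08% against 11.5%. The members are paralogs, so their promoters are not independent of each other. A match describes the letters and not a bound site.

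In many members the ETS letters stood at one place. They lay in the 50 bases after the start in 24 of the 65 promoters (36.9%), against 1.93% of all promoters. In 14 of the 65 they began at base 5 after the start, out of 44 such promoters in the whole table, and 11 of the 14 belong to 19q13.41. ZNF841, ZNF616 and ZNF808 are of this kind. From 20 bases before to 50 after the start, ZNF841 and ZNF616 had the same base at 78.6% of 70 positions, ZNF841 and ZNF808 at 65.7%. Over all 300 bases, compared without gaps, the same base stood at 47.3% of positions in ZNF841 and ZNF616 and at 37.3% in ZNF841 and ZNF808. ZNF841 fell in Baz2B-KO and ZNF616 did not pass the test, so 2 neighbours that are alike around the start, though less so further upstream, differed in their values. ZNF841 has a further annotated start whose promoter has 41% GC and none of these letters. ZNF256 has an overlapping pair of ETS matches on both strands and an NRF1 match, and ZNF544 an ETS match at the start. The 34 measured members with the ETS letters in a promoter had a median log2 fold change of 0.00 and included the 3 calls, and the 12 without had one of 0.08. As 34 of the 46 measured members with a promoter hold the letters and the clusters were chosen for the 3 calls, nothing is read from where the calls fall.

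**Figure D4:**
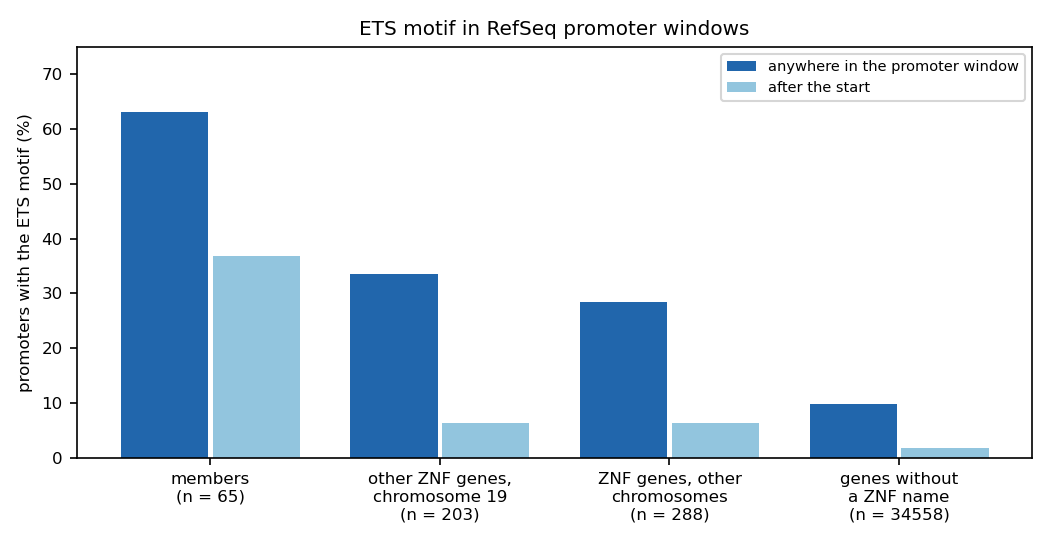
Share of RefSeq promoter windows (in percent, 250 bases before to 50 after the start) that hold the ETS letters on either strand, anywhere in the window in dark and in the 50 bases after the start in light bars. The members stand at 63.1% and 36.9%, other ZNF genes of chromosome 19 at 33.5% and 6.4%, ZNF genes of other chromosomes at 28.5% and 6.25%, and genes without a ZNF name at 9.87% and 1.81%.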

How the data were processed

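Transcript levels were measured in 2 arrays of Baz2B-KO and 2 of the parental Hap1 control, assigned by the sample labels. The deposited values are log2 intensities of 53617 probe sets, unfiltered, which the authors made with RMA in the oligo package (version not given in the sources used here). Precision is set by the number of arrays. The platform annotation named 16098 probe sets, each with 1 gene, and left 37519 unnamed here. Symbols came next from a supplementary list of 1999 rows, and the authors' fold changes and p-values in it were left aside. The intensity rule, above 3.5 in at least 2 arrays, follows the methods. The methods kept probes with a single Ensembl gene, whereas here a probe set had to be named by the platform annotation, so the sets tested differ. The fit used limma 3.58.1 (R 4.3.3; lmFit, then eBayes) with the 2 lines as groups and no covariates. Calls needed an adjusted p under 0.05, Benjamini-Hochberg over all 11235. For ZNF28 the fitted prior was reused, and its p was adjusted as if it were 1 more probe set. Medians and counts over the members used all 54 with a probe set, tested or not. The members and lists were chosen with earlier results of these data known. The named genes were set by a rule, namely the members past the test, the 5 lowest and 5 highest of the rest, the next zinc-finger genes on either side of each call, and TRIM28. Other members and ZNF814 were named after their values were seen. Gene order came from the RefSeq table of GRCh38.p14. As the build behind the probe sets is not stated, no gene coordinates are given beyond those of the promoters. The 6 motifs were taken from general knowledge. Protein features were planned and not run, as no protein sequences were used here. The fit was tested on simulated data. The same-number arrays correlated at 0.158 in their deviations over 11235 probe sets, but with 2 pairs and no shared culture stated the numbers were not taken to pair the arrays. Figures were drawn with matplotlib 3.10.9.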

Additional observations from a re-analysis of the deposited data

How the results depend on the processing

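ZNF841, ZNF256 and ZNF544 had log2 fold changes between -1.21 and -0.996, -1.48 and -1.03, and -0.84 and -0.68 over the other settings. That they stayed below 0 is no test. Both Baz2B-KO arrays of each lay below both controls, so leaving 1 array out could not turn a sign. The filter, model and naming settings reuse the same log2 fold changes. Using platform names alone repeats the fit reported for every gene but ZNF28, so any pass there was fixed beforehand. ZNF841 passed in 10 and ZNF256 in 8 of 14 other settings, and ZNF544 in 5 of the 13 that tested it. The count of members called lower, 3 in the fit reported, was 1 with no intensity filter (ZNF841), 0 with all retained probe sets tested, 1 with the replicate block (ZNF841, with ZNF256 at an adjusted p of 0.079 and ZNF544 at 0.0894 from limma) and 0 to 2 with 1 array left out. With all retained probe sets tested there are more probe sets to adjust for, and the prior is fitted over the unnamed ones too. A block or a left-out array leaves fewer residual degrees of freedom. How much each of these adds to the loss of calls was not tested. A line left with 1 array is assumed to vary like the other. Over all probe sets, the counts of 44 lower and 31 higher became 25 and 16 with no filter, 22 and 4 with all retained probe sets, 25 and 13 with the replicate block, and 0 to 27 lower and 0 to 15 higher with 1 array left out. It was 0 without Hap1 control replicate 1, with 935 at an unadjusted p under 0.05 from limma, and 0 without Hap1 control replicate 2, with 1419. The same-numbered arrays share only a number, and the block changed no other call among the members. No member was called higher in any setting, with 1 at an unadjusted p under 0.05 in the fit reported, and no other ZNF gene and no corepressor gene was called in any of the 14 other settings. The stricter filter leaves ZNF544 untested, and an intensity trend gave it an adjusted p of 0.0652 from limma. The median log2 fold change over the members of 19q13.43 was 0.05, ranged between -0.0269 and 0.0923 with 1 array left out and was below 0 only without Hap1 control replicate 2. That over all 54 members, 0.0264, ranged between -0.0281 and 0.0783 and was below 0 without Baz2B-KO replicate 1 and without Hap1 control replicate 2. That of 19q13.41, 0.00157, ranged between -0.0761 and 0.0469 and was above 0 only without Baz2B-KO replicate 2, so the sign of none of these medians is settled.

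The 6 members from ZNF808 to ZNF28 lay below 0 in each of the settings, 5 of 5 without ZNF28 when the platform names alone were used. In all 6 the lines do not overlap, so leaving 1 array out could not turn a sign. They were also chosen on these arrays, so this is no independent support. Under quantile normalization 4 members changed sign, of which ZNF665, at -0.32 and under the limit in all arrays, was the only one over 0.25 in size. With 1 array left out 5 to 12 changed sign, none over 0.193 in size. With 2 arrays a line, no difference of the size of the median member passed the test in the fit reported.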
